A study of Mus musculus with 18 samples.

Results

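Prox is an enhancer region that lies between Lnp and Evx2 on mouse chromosome 2, upstream of the 5′ end of the HoxD cluster. Its contacts were taken from all 18 chromosome conformation capture carbon copy (5C) matrices of the series as every forward-reverse primer pair at least 10 kb apart with an end on a fragment whose midpoint lies in chr2:74427780-74470655 (mm9), a window of 42.876 kb. In embryonic stem (ES) cells 506 of 4251 such pairs were anchored on Prox, and in limb cells 786 of 10068. The same 8 EcoRI fragments of the window carried primers in both designs.

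5C measures how often pairs of restriction fragments are ligated together after formaldehyde crosslinking, by counting ligated primer pairs across a chosen region. The study compared chromatin folding around HoxD in ES cells, in mutants of the polycomb complexes, and in limb mesenchyme. The OS25 ES cells were sampled undifferentiated (2 libraries) and after 3 days of differentiation with retinoic acid for 2 of them (2 libraries). The growth labels of the undifferentiated OS25 libraries also describe the differentiation, and these libraries were taken as undifferentiated from their titles. Wild-type ES cells (line WTF18, 2 libraries) were set beside ES cells lacking Eed, a subunit of polycomb repressive complex PRC2 (2 libraries). ES cells lacking Ring1B, the catalytic subunit of PRC1 (3 libraries), were compared with the same wild-type libraries, which are titled Ring1B_WT. The methods cite separate sources for the Eed-/- and Ring1B-/- lines, so loss of Eed cannot be told apart from a difference between lines. The lines Ring1BGWT (2 libraries) and Ring1BG53 (1 library) are Ring1B-/- cells given wild-type Ring1B or a catalytic mutant of it. By the study's methods the wild-type, Eed-/- and Ring1B-/- ES cells were grown on feeder fibroblasts, which were removed before fixation. The methods name no feeders for the OS25 cells or the lines given Ring1B. The 2 Eed-/- clones of the study could not be tied to libraries. The limb cells are immortalised mesenchymal lines from the anterior (A2, 2 libraries) and posterior (P2, 2 libraries) distal forelimb bud of Immortomouse embryos at E10.5, and each is 1 line. Each value is the reads of a primer pair per 1000 reads of its sequencing run, here called the contact frequency. No expression was measured in these files, so the identity of the cells could not be checked against marker genes.

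Digit formation depends on late expression of the 5′ Hoxd genes, and Prox and the global control region (GCR) are known enhancers of that phase in the distal limb. In undifferentiated ES cells with intact polycomb complexes the Hoxd genes are silent and covered by these complexes. The segments compared with Prox were the GCR, the stretch from the GCR to Lnp, the Lnp gene, the Evx2 side (Evx2 and its upstream fragments), the 5′ Hoxd genes (Hoxd13 to Hoxd8), the 3′ Hoxd genes (Hoxd4 to Hoxd1), the interval from Hoxd1 to Mtx2, the Mtx2 gene and the region beyond it. In limb cells 2 further segments covered the gene desert 5′ of the GCR.

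The window holds no protein-coding gene. The GENCODE annotation places the pseudogene Mrpl23-ps1 on the longest fragment, mHoxD_48, and the pseudogene Gm13672 on the fragment nearest to Evx2, mHoxD_63. The sequences that close a fragment are what 5C reads, since the primers meet at the EcoRI site after ligation. The 3′ ends of the longest and of the shortest fragment are shown with the EcoRI site in capitals, on the plus strand of mm9.
mHoxD_48, chr2:74439585-74439614: agaacctaataaaagcttcatttaGAATTC
mHoxD_55, chr2:74454321-74454350: ttttaaagatgtccttggagcactGAATTC

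The letters AGGGGGC, part of the consensus bound by the architectural protein CTCF, were searched on both strands because such sites often mark contact anchors. They occurred in 3 of the 8 Prox fragments (37.5%), against 40 of all 133 fragments of the ES cell design (30.1%) and 59 of all 203 fragments of the limb design (29.1%). The 3 sites are shown with the motif in capitals, in the orientation in which the motif reads.
mHoxD_48, chr2:74430232-74430261, minus strand: aacagacactcgAGGGGGCttcactgggct
mHoxD_56, chr2:74454475-74454504, plus strand: atgagccccacAGGGGGCaggggtcggggt
mHoxD_63, chr2:74468839-74468868, plus strand: aaggggaagtcAGGGGGCcctacccctcac

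The libraries held 216419 to 1708047 reads in ES cells and 478818 to 2096681 in limb cells, of which 7642 to 71420 and 28280 to 77176 were Prox reads. These read numbers were inferred from the smallest step between the values of each library. Prox pairs were 11.9% of the pairs at 10 kb or more in ES cells and 7.81% in limb cells. They took 4.82% to 7.19% of the reads at that distance in ES cells and 5.22% to 7.09% in limb cells. Between 33.2% and 75.1% of the Prox pairs had no read in an ES cell library, against 2.54% to 29.4% in a limb library. Over all pairs the shares were 24.2% to 63.5% and 1.97% to 23.4%. A pair without a read can still have a frequency of up to 0.00176 to 0.0139 reads per 1000 in ES cells, the limit that 3 reads set at these depths. Such limits cover counting error only. The labels do not say whether replicates are separate cultures, so p-values measure the spread between these libraries, which may be technical.

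The 8 fragments were not alike in frequency. The longest, mHoxD_48 (11832 bp), had a mean frequency over its pairs of 0.132 in ES cells (range over 14 libraries 0.0833 to 0.183) and 0.147 in limb cells (0.103 to 0.207 over 4 libraries). The shortest, mHoxD_55 (338 bp), had 0.0379 (0.0182 to 0.0492) in ES cells and 0.0308 (0.0260 to 0.0338) in limb cells. The ranges of these fragments did not overlap in either design. mHoxD_58 (419 bp) and mHoxD_61 (729 bp) were also low, at 0.0375 and 0.0445 in ES cells, while mHoxD_62 (3637 bp) reached 0.104. In limb cells the 4626-bp mHoxD_56 (0.0416) was close to the 729-bp mHoxD_61 (0.0406) and below the 1221-bp mHoxD_49 (0.0577), so frequency did not follow length throughout. The part of fragment length in the results was not tested beyond the values for fragments of at least 1 kb.

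**Figure D1:**
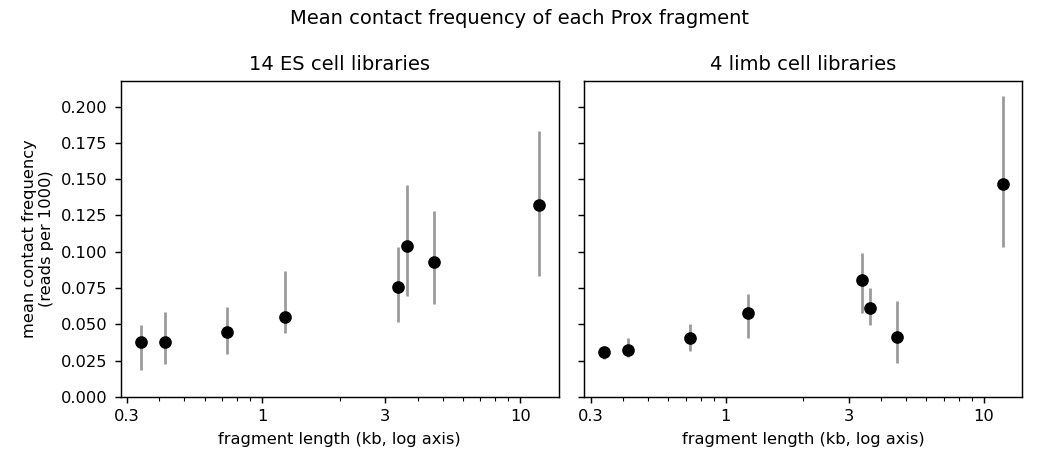
Mean contact frequency (reads per 1000, linear axis from 0) of each of the 8 Prox fragments against its length (kb, log axis) in ES cells and limb cells. Points are means over libraries and bars run from the lowest to the highest library. The 11832-bp fragment is the highest in both designs, and the 3 fragments under 1 kb are the lowest in both.

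In ES cells the Prox pairs of highest mean frequency led to Evx2 and the 5′ Hoxd genes. mHoxD_63 with the fragment holding Evx2, the homeobox gene beside Hoxd13, had 0.556, 21.7 kb away, and mHoxD_56 with the same fragment had 0.537. mHoxD_48 with the Hoxd11 fragment had 0.541 at a distance of 86.6 kb. The latter pair ranged from 0 in 1 library to 1.39 in a Ring1BGWT library, with a median of 0.478. The pair of mHoxD_63 had no read in 3 libraries and reached 1.24 in a differentiated OS25 library, with a median of 0.564. mHoxD_56 with the fragment upstream of Evx2 (0.503) and mHoxD_62 with the Hoxd13 fragment (0.478) completed the 5 highest pairs. The pair of mHoxD_62 ran from 0.0188 to 1.01.

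In limb cells all 5 highest pairs were anchored on mHoxD_48. Its pair with an Lnp fragment 23.7 kb away had 0.543, that with the Hoxd13 fragment 0.482 and that with the Hoxd11 fragment 0.430. The Hoxd13 pair had 0.309 and 0.396 in the A2 libraries and 0.641 and 0.580 in the P2 libraries. The Hoxd11 pair had 0.412 and 0.691 in A2 and 0.434 and 0.182 in P2. The remaining pairs were with a fragment at the 5′ edge of the Hoxd genes (0.425) and with a further Lnp fragment (0.413).

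To compare partners at unlike distances, each library's observed frequency was divided by the mean of its pairs in the same distance class that touched neither Prox nor the Hoxd cluster, and the log2 of that ratio is here called the enrichment. A value of 0 is a contact at its expected frequency. Prox with the whole Hoxd cluster had an enrichment of -0.03 and 0.42 in the undifferentiated OS25 libraries, and -0.74 and -0.82 after 3 days of differentiation. These groups did not overlap. Nor did they with the Evx2 side as the anchor of the cluster (2.56 and 3.69 against 1.57 and 1.87). With Lnp as the anchor they overlapped (-0.41 and 0.17 against -0.70 and -0.02). The median change in enrichment over all 63 segment pairs was -0.30. For Prox with the cluster, the wild-type libraries had -0.03 and -0.17, the Eed-/- libraries -0.33 and -0.64, and the Ring1B-/- libraries 0.17, -0.73 and -0.28. The Ring1BGWT libraries had 0.04 and 0.21, and the Ring1BG53 library -0.31. In limb cells the cluster had -0.34 and -0.19 in A2 and -0.40 and -0.18 in P2, so all 4 limb libraries were below 0 and the lines overlapped.

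Against 0, the enrichment of Prox with the Hoxd cluster passed the test in differentiated OS25 cells (-0.78, limma, adjusted p = 0.011) and in none of the other 8 groups. It did not pass in P2 (-0.29, limma, adjusted p = 0.068) or A2 (-0.26, limma, adjusted p = 0.10), though with a factor for each primer's efficiency these values were -1.33 and -1.32 and passed. The call in differentiated cells was lost without either of its libraries, at an adjusted p of 0.077 and 0.105 (limma). Of the 11 Prox partners tested in each ES cell group, those called were 2 in undifferentiated OS25 cells (39.7% of all segment pairs called), 5 after differentiation (42.9%), 4 in wild-type cells (42.9%), 3 in Eed-/- cells (28.6%), 1 in Ring1B-/- cells (38.1%), 3 in Ring1BGWT (38.1%) and 2 in Ring1BG53 (31.7%). All of these were below 0. Of 13 partners in limb cells, 4 were called in A2 (54.5% of all segment pairs) and 5 in P2 (61.4%).

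**Figure D2:**
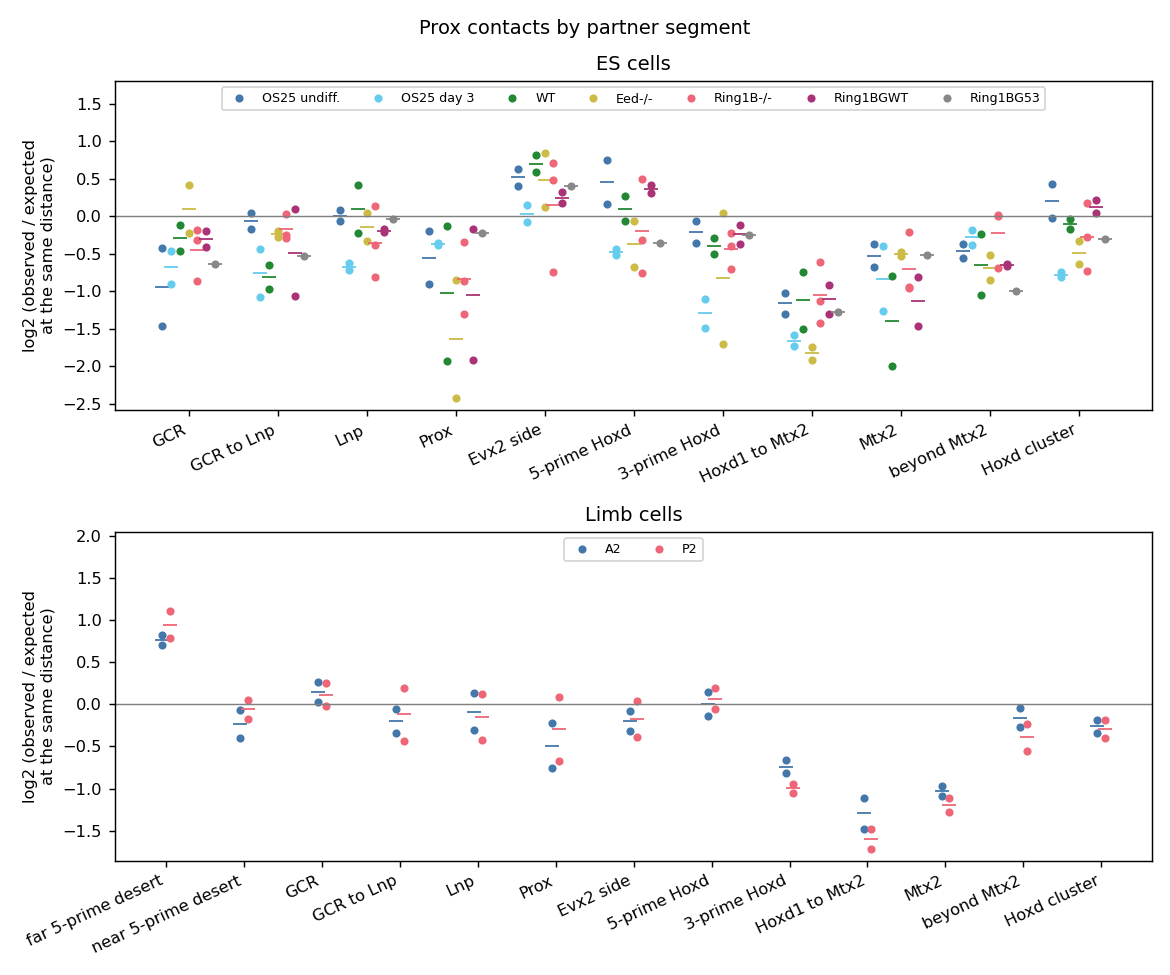
Enrichment of Prox contacts (log2 of observed over expected at the same distance) by partner segment, in genomic order with the whole Hoxd cluster last, in ES cells and limb cells. Points are libraries and dashes are group means. Contacts with the interval from Hoxd1 to Mtx2 lie below 0 in all 18 libraries, and in limb cells the far 5′ desert lies above 0 in all 4.

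As a mean over libraries, the lowest partner of Prox in each design was the gene-poor interval from Hoxd1 to Mtx2, though Mtx2 itself was lower in wild-type cells (-1.39 against -1.12) and in Ring1BGWT (-1.14 against -1.11). The interval was also low with Lnp as the anchor. It ran there from -2.37 to -0.76 over the 14 ES cell libraries and from -0.91 to -0.59 over the 4 limb libraries. With the Evx2 side as the anchor it ran from -1.19 to 1.00 in ES cells and from -0.91 to -0.41 in limb cells. Its enrichment with Prox ran from -1.92 to -0.61 in ES cells and from -1.71 to -1.11 in limb cells. The group means lay between -1.83 in Eed-/- cells and -1.05 in Ring1B-/- cells in ES cells, and were -1.29 in A2 and -1.60 in P2, called against 0 in all 9 groups with all libraries in the fit. The A2 call was lost without either A2 library (-1.48, limma, adjusted p = 0.0793, and -1.11, adjusted p = 0.0917). It was also lost without 1 library in undifferentiated OS25 cells (replicate 2, -1.02, limma, adjusted p = 0.0598), in wild-type cells (replicate 1, -0.74, limma, adjusted p = 0.0694) and in Ring1BGWT (replicate 2, -0.92, limma, adjusted p = 0.0689). Among fragments of at least 1 kb it was lost in wild-type cells (-0.80, limma, adjusted p = 0.0684) and in Ring1BG53 (-1.22, limma, adjusted p = 0.0662). With a correction for the efficiency of each primer the limb values were -1.08 in A2 and -1.45 in P2. In ES cells that correction, which is itself estimated from contacts at 120 kb and more, left 0.07 in wild-type cells and -0.02 in undifferentiated OS25 cells, and only the differentiated cells kept the call (-0.88, limma, adjusted p = 0.0345).

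In limb cells Prox also had low enrichment with Mtx2 (-1.03 in A2 and -1.19 in P2) and with the 3′ Hoxd genes (-0.74 in A2 and -0.998 in P2), all called with the 4 libraries in the fit. Without either A2 library the A2 values were no longer called, at an adjusted p of 0.0793 and 0.0917 (limma), while the P2 values stayed called without either P2 library. The 5′ Hoxd genes, which the digit enhancers act on, were at 0.00 in A2 and 0.07 in P2. Other anchors were also below 0 with Mtx2. Lnp had -0.56 to -0.21 over the 4 limb libraries, the GCR -0.68 to -0.47 and the Evx2 side -1.04 to -0.30. With the 3′ Hoxd genes the GCR had -0.67 to -0.17, Lnp -0.57 to 0.02 and the Evx2 side -0.34 to 0.29. With the far 5′ desert, other anchors were above the expectation in all 4 limb libraries. Lnp had 0.67 to 0.87, the Evx2 side 1.44 to 1.87 and the GCR 0.34 to 0.61. Contacts of Prox with this desert were also above it, at 0.82 and 0.70 in A2 and 1.10 and 0.79 in P2. The group means of 0.76 and 0.95 were called (limma), and were 0.43 and 0.55 with the primer correction. The A2 mean was 0.70 (limma, adjusted p = 0.109) and 0.82 (adjusted p = 0.0917) without either of its libraries. Of the 88 segment pairs of the limb design, 0% were called in A2 in either of these fits.

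**Figure D3:**
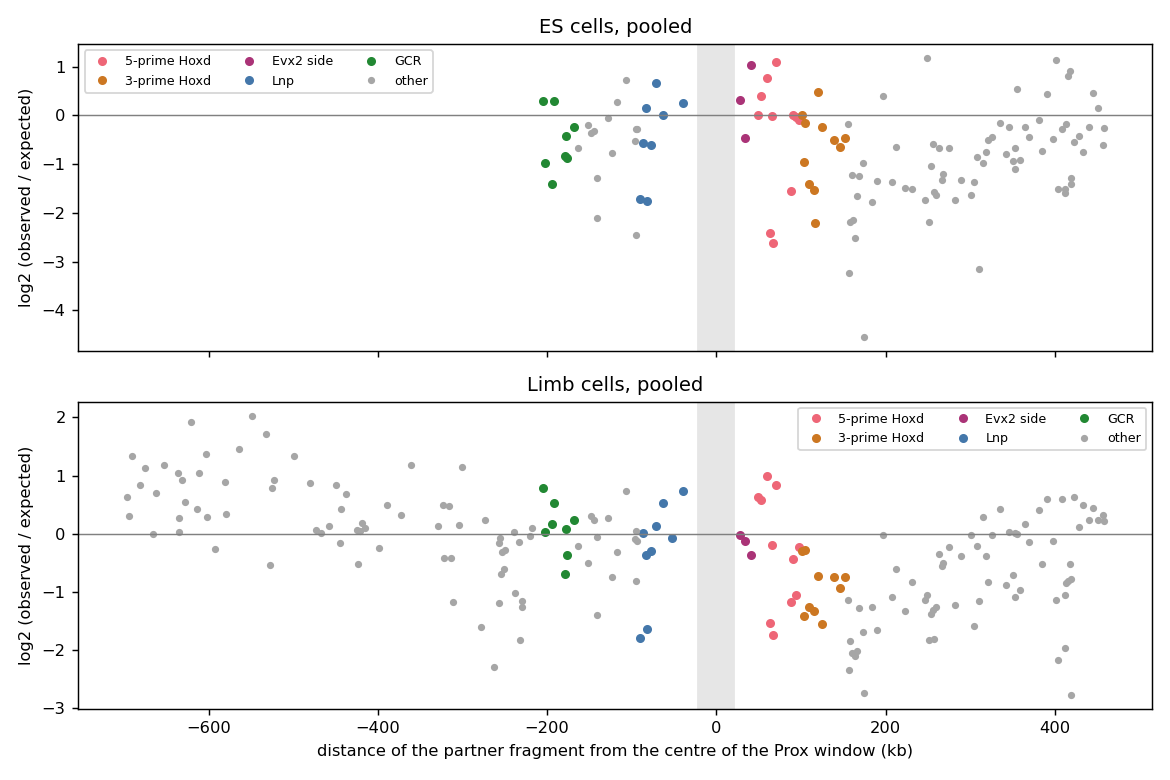
Pooled enrichment of Prox with each partner fragment against its distance from the centre of the Prox window (kb, negative towards the GCR), coloured by segment, in ES cells and limb cells. The grey band is the window. Fragments of Hoxd13 and Hoxd11 stand above 0 in both designs, and mHoxD_71 and mHoxD_74 of the Hoxd12 region stand below -1, while mHoxD_73 between them stands near 0.

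Within the cluster the partner fragments were uneven. The Hoxd11 fragment had a pooled enrichment of 1.09 in ES cells and 0.83 in limb cells, and the Hoxd13 fragment 0.76 and 0.99. By ES cell group the Hoxd11 value was -0.13 in Eed-/- cells, 0.47 in differentiated OS25 cells and up to 1.83 in Ring1BGWT. The Hoxd13 value ran from 0.30 in wild-type cells to 1.41 in Ring1BGWT. The Evx2 fragment had 1.03 in ES cells and -0.36 in limb cells. These are values of single fragments pooled over libraries, and a fragment's length and primer enter them in full.

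The contact frequency of Prox with the Hoxd cluster was 0.139 ± 0.00382 (SD, n = 2) in undifferentiated OS25 cells and 0.0959 ± 0.0173 (n = 2) after differentiation. It was 0.105 ± 0.00595 (n = 2) in wild-type cells, 0.0997 ± 0.00613 (n = 2) in Eed-/- cells and 0.110 ± 0.0323 (n = 3) in Ring1B-/- cells. In limb cells it was 0.0895 ± 0.00816 (n = 2) in A2 and 0.0882 ± 0.0112 (n = 2) in P2, a log2 difference of -0.02 with a 95% interval from -0.42 to 0.38.

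No contact of Prox with a segment passed the test in any of the 7 comparisons between groups, as a frequency or as an enrichment. Over all segment pairs, those called by frequency were 3.17% for differentiated against undifferentiated OS25 cells, 11.1% for Eed-/- against wild-type, 1.14% for P2 against A2 and 0% for the other 4. By enrichment they were 12.7% for Eed-/- against wild-type and 0% for the other 6. The nearest Prox value was the enrichment with the Hoxd cluster in differentiated against undifferentiated OS25 cells (-0.98, 95% interval -1.62 to -0.33, limma, adjusted p = 0.096).

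At the level of single fragment pairs, 0 of 372 Prox pairs in ES cells and 0 of 634 in limb cells were called by limma in any comparison, as were 0% of all pairs. At an unadjusted p under 0.05 there were 12 to 29 Prox pairs of 372 in the ES cell comparisons (3.23% to 7.8%, against 3.85% to 9.41% of all pairs) and 22 of 634 in limb cells (3.47% against 3.25%). The standard error of a single Prox pair was 1.12 to 2.11 on the log2 scale in ES cells and 0.595 to 0.960 in limb cells. A change of several fold in a single ES cell pair was therefore not detectable with this spread and number of libraries, and the absence of calls does not show that pairs were alike. Between ES cell replicates the chi-square per degree of freedom over all pairs was 60.6 (Ring1BGWT) to 189 (Eed-/-), so the spread was far above counting error.

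Whether Prox leaned towards the cluster or towards Lnp was read from contacts at equal distance on its 2 sides, between 40 and 110 kb. The order of the means differed between distance classes. At 40 to 60 kb the mean frequency was 0.140 ± 0.0690 (SD over 14 libraries) with the cluster and 0.206 ± 0.122 with Lnp in ES cells, and 0.106 ± 0.0181 and 0.165 ± 0.0681 (4 libraries) in limb cells. At 60 to 80 kb it was 0.160 ± 0.0821 with the cluster and 0.129 ± 0.0588 with Lnp in ES cells, and 0.140 ± 0.0239 and 0.123 ± 0.0451 in limb cells. At 80 to 110 kb it was 0.0961 ± 0.0346 and 0.0707 ± 0.0395 in ES cells, and 0.0716 ± 0.0150 and 0.0526 ± 0.0201 in limb cells. On these means Lnp was above the cluster in the nearest class and below it in the other 2, with overlapping spreads. Single libraries did not all follow. At 40 to 60 kb, where Lnp had 4 fragment pairs in ES cells and 6 in limb cells, both differentiated OS25 libraries had the cluster above Lnp. Both Eed-/- libraries had it below. At 60 to 80 kb Lnp was the higher in replicate 1 of A2 (0.164 against 0.121) and P2 (0.158 against 0.157), and the lower in replicate 2 of both. The log2 ratio of cluster to Lnp was called against 0 in Ring1BGWT alone (0.77, limma, adjusted p = 0.0219). This call was lost without either library (0.58 and 0.96), among fragments of at least 1 kb (0.46) and with primer factors (-0.08, limma, adjusted p = 0.871). In limb cells it was 0.02 in A2 and 0.12 in P2, and -0.88 and -0.89 with primer factors. In Eed-/- cells it was -0.66 and in wild-type cells 0.28, and their difference of -0.94 had an adjusted p of 0.0525 (limma, 95% interval -1.67 to -0.20).

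That difference lay beside the threshold. It was called with the 2 groups alone, with values capped, with primer factors (-1.47) and without mHoxD_48 (-1.17). Among the 26 windows of equal length along the locus in ES cells, the share whose ratio of 3′ to 5′ contacts was called was 26.9% for Eed-/- against wild-type, 26.9% for OS25 differentiation, 11.5% for Ring1B-/- against wild-type, 19.2% for Ring1BGWT and 15.4% for Ring1BG53 against Ring1B-/-, and 0% for OS25 against wild-type. Among the 53 windows of the limb design it was 0% for P2 against A2.

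Measured by the same ratio over all contacts in range, Prox had -0.74 in A2 replicate 1 and -0.77 in P2 replicate 1, but -0.16 in replicate 2 of both lines. The replicates thus differed more than the lines did. On the means of -0.45 in A2 and -0.46 in P2, which replicate 1 sets for the larger part, 49 of the 53 windows of equal length were above Prox in each line. Some of the 53 windows overlap Prox, and 1 of them has the same values as Prox in every library. Neither Prox mean was called against 0, where 5.66% and 9.43% of the windows were. In ES cells the ratio ran from -0.85 in Ring1BG53 to 0.69 in Ring1BGWT, the latter called (limma, adjusted p = 0.0467). That call was lost without either library (0.52 and 0.85), without empty pairs (0.66), among fragments of at least 1 kb (0.43) and with primer factors (0.01). Of the 26 windows, 38.5% were called in undifferentiated OS25 cells, 0% after differentiation, 50% in wild-type, 3.85% in Eed-/-, 34.6% in Ring1B-/-, 38.5% in Ring1BGWT and 26.9% in Ring1BG53 cells.

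Further out, at 150 to 200 kb, Prox met the Hoxd1 to Mtx2 interval less often than the GCR in all 4 limb libraries. The frequencies were 0.0279 ± 0.00725 and 0.0832 ± 0.0186 (4 libraries). The log2 ratio was -1.45 in A2 and -1.73 in P2, both called, and these calls were kept under the 9 alternatives run for each. The ratio was not taken for other anchors, so it is not shown to be particular to Prox. In ES cells the frequencies were 0.0338 ± 0.0111 and 0.0631 ± 0.0248 (14 libraries), and the order was the opposite in 1 library each of undifferentiated OS25 (0.0527 against 0.0357), differentiated OS25 (0.0248 against 0.0242) and Ring1B-/- cells (0.0329 against 0.0307). The ratio was called in Eed-/- (-2.15) and wild-type cells (-1.28). The wild-type call was lost without either library (-1.04 and -1.51), with primer factors (-0.66) and without mHoxD_48 (-0.30), and the Eed-/- call without replicate 2 (-1.65) and without mHoxD_48 (-1.56).

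Prox was then set against other anchors. From its enrichment with a partner, that of Lnp, of the GCR or of the Evx2 side with the same partner was subtracted. The values were already known when this measure was chosen. With the Hoxd cluster, Prox minus Lnp was -0.57 and -0.77 in the A2 libraries and -0.54 and -0.96 in P2. The means of -0.67 (limma, adjusted p = 0.0023) and -0.75 (limma, adjusted p = 0.00078) were called, so at matched distance the limb Lnp fragments met the cluster more often than Prox did. In the 7 ES cell groups the difference lay between -0.42 and 0.32 and was not called. The limb calls were kept with primer factors, and the A2 call was lost among fragments of at least 1 kb (-0.53, limma, adjusted p = 0.178), without A2 replicate 2 (-0.57, adjusted p = 0.151), and the P2 call without P2 replicate 2 (-0.54, adjusted p = 0.132). The limb and ES cell designs were not tested against each other.

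Prox was also below the Evx2 side as an anchor of the cluster, with differences from -1.91 in Eed-/- cells to -3.71 in Ring1BG53 among ES cells and of -0.79 in A2 and -1.09 in P2, called in all 9 groups. With primer factors the ES cell values were -0.33 to -1.96, no longer called in Eed-/- and Ring1B-/- cells, and the limb values were 0.06 and -0.22, neither called. Prox minus the GCR with the cluster was -0.33 and -0.31 in A2 and -0.38 and -0.60 in P2. In ES cells it ran from -0.90 to 0.59. Over all partners and the anchors Lnp, GCR and Evx2 side, the differences called were 20 of 33 in A2 (60.6%) and 24 of 33 in P2 (72.7%). In ES cells they were 25.9% of 27 in undifferentiated OS25 cells, 25.9% after differentiation, 29.6% in wild-type, 29.6% in Eed-/-, 33.3% in Ring1B-/-, 44.4% in Ring1BGWT and 22.2% in Ring1BG53 cells. Every group mean called against 0 was below 0. Between groups, 3.7% of the 27 differences were called for Eed-/- against wild-type cells and 0% in each of the other 6 comparisons. The 1 called was Prox minus the Evx2 side with the 3′ Hoxd genes, at -1.23 and -1.64 in the Eed-/- libraries and -3.36 and -3.13 in the wild-type libraries, a difference of 1.81 (limma, adjusted p = 0.0222). In it the enrichment of the Evx2 side was 1.27 and -0.07 in Eed-/- against 2.85 in both wild-type libraries, and that of Prox was 0.04 and -1.70 against -0.50 and -0.29. The call was lost without any 1 of the 4 libraries, at 1.61 to 2.02, and at 1.24 to 1.79 with capped values, primer factors, the expected level from all pairs, fragments of at least 1 kb, or without mHoxD_48.

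**Figure D4:**
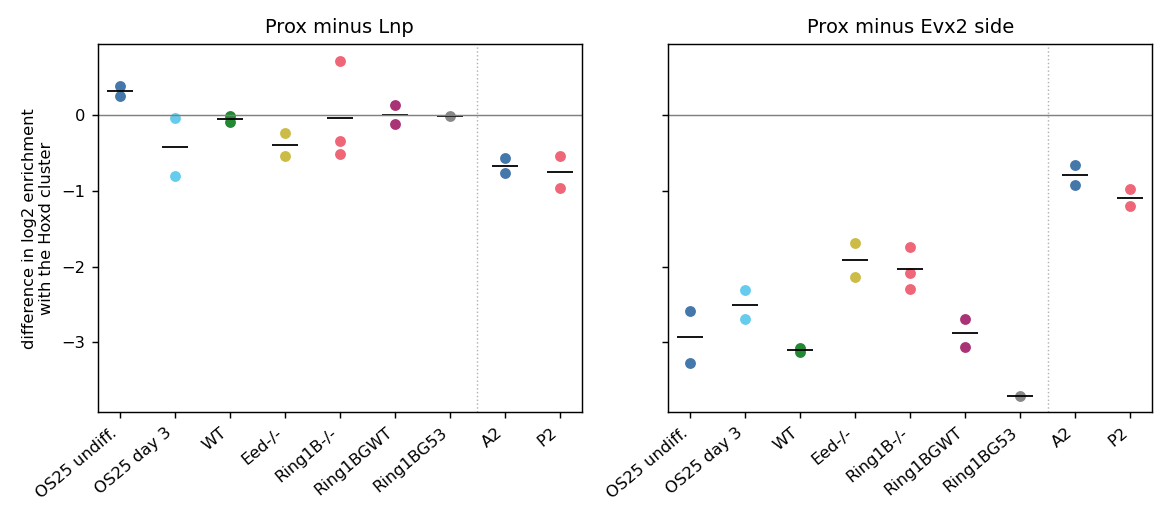
Enrichment of Prox with the Hoxd cluster minus that of Lnp (left) and of the Evx2 side (right), in log2, by group. Points are libraries, dashes are group means, and the dotted line parts ES cells from limb cells. All 4 limb libraries lie below 0 on the left, where ES cell groups scatter around 0, and all 18 libraries lie below 0 on the right.

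The limb matrices of replicate 1 and replicate 2 name their fragments differently, so P2 and A2 were also compared within each replicate number. Prox enrichment with the Hoxd cluster differed by -0.06 in replicate 1 and 0.00 in replicate 2. With Lnp it differed by -0.01 and -0.11. Among the other segments outside Prox, those whose difference had 1 sign in both replicates were the GCR (-0.02 and -0.05), the 5′ Hoxd genes (0.09 and 0.05), the 3′ Hoxd genes (-0.39 and -0.12), the interval from Hoxd1 to Mtx2 (-0.36 and -0.24), Mtx2 (-0.15 and -0.19), the region beyond it (-0.18 and -0.29), the near 5′ desert (0.12 and 0.23) and the far 5′ desert (0.28 and 0.09). None of these was called between the lines, also with the replicate as a block. The replicates themselves differed more, with Lnp at 0.13 and 0.12 in replicate 1 of A2 and P2 and at -0.31 and -0.42 in replicate 2, a difference whose cause was not tested.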

How the data were processed

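The deposited 5C matrices hold, per the study's methods, the signal of each forward-reverse primer pair: its reads divided by all reads of the run, times 1000. The authors processed the reads with a Torrent 5C pipeline, and coordinates are mm9. No source used here names an aligner. Nothing else was normalized. Segments, the Prox window and the comparisons were chosen with earlier results of these data known.

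Pairs at least 10 kb apart were averaged per segment pair (at least 3 pairs) and tested on log2(mean + 0.02) by two-sided tests of limma 3.58.1 (R 4.3.3), with Benjamini-Hochberg adjustment over all rows of a comparison and a threshold of 0.05. The 14 ES cell libraries were fitted together, and the 4 limb libraries apart. Fragment pairs needed a mean above 0.02. Enrichment used 14 distance classes from 10 to 1160 kb, without a pseudocount. Equal-length windows were placed every 20 kb, and 23 of the 26 in ES cells and 49 of the 53 in limb cells do not overlap Prox. The 5 highest Prox pairs of each design were named. The code was tested on simulated data. Replicates were checked for copies and none was found. Alternatives were other pseudocounts, filters, scalings, expected values, bins, primer factors and leaving out each library.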

Additional observations from a re-analysis of the deposited data

How the results depend on the processing

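For values that answer a comparison, changes of direction, call or size are given here, and for other values changes of direction, and the cause of each was not tested. Lost calls of other values stand beside them in the report, except those of the enrichment with Mtx2, which was called in wild-type cells and Ring1BGWT and lost in each with primer factors (-0.65 and -0.48) and without replicate 2 (-0.79 and -0.81), with the 3′ Hoxd genes in differentiated OS25 cells without replicate 2 (-1.11), and with Hoxd1 to Mtx2 in Eed-/- cells with primer factors (-0.79). A percentage after a count is the share of all segment pairs, or of all fragment or bin pairs, called in the same setting. Signs of values whose intervals include 0 carry no direction. The overlap rule for the Prox window gave the same 8 fragments. The planned edgeR test was not run, although read numbers could be recovered from the matrices to within 4.34e-06 of whole reads. The labels pair no replicates. In limb cells the frequency in replicate 1 was above that in replicate 2 in both lines for the cluster and all 12 Prox segments, and the fragment naming differs in the same way. With a replicate block the change in frequency with the cluster in differentiated against undifferentiated OS25 cells was -0.46, as without it, and no call of the results refitted in this way changed. Groups of 1 to 3 libraries and pairs without reads limit the precision in ES cells. The restriction to fragments of at least 1 kb, the analysis without mHoxD_48 and the differences between anchors were chosen after seeing the data.

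Among fragments of at least 1 kb, the change in the cluster to Lnp ratio was 0.21 (differentiated OS25 against undifferentiated OS25). The log2 change in frequency with the cluster was then -0.01 (Ring1B-/- against wild-type). Prox partners called against 0 then numbered 1 (undifferentiated OS25, 38.1%), 3 (differentiated OS25, 38.1%), 2 (wild-type, 33.3%), 2 (Ring1B-/-, 36.5%) and 0 (Ring1BG53, 27%). Prox minus Lnp with the cluster was then 0.14 (wild-type), 0.04 (Ring1B-/-), 0.31 (Ring1BG53) and -0.53 (A2). The cluster to Lnp ratio was then -0.08 (wild-type), -0.15 (Ring1B-/-) and -0.10 (A2). The side ratio was then -0.03 (wild-type) and -0.26 (Ring1B-/-). Enrichment with the cluster was then -0.72 (Eed-/-). The enrichment with the 3′ Hoxd genes was then 0.04 (Ring1BGWT). The change in the side ratio was then 0.04 (P2 against A2). Prox minus the Evx2 side with the cluster was then -0.75 (A2). With primer factors, the change in the side ratio was -0.05 (differentiated OS25 against undifferentiated OS25), -1.20 (Eed-/- against wild-type) and -0.11 (undifferentiated OS25 against wild-type). The change in the cluster to Lnp ratio was then -1.47 (Eed-/- against wild-type), -0.01 (undifferentiated OS25 against wild-type) and -0.01 (P2 against A2). The enrichment with Mtx2 was then 0.28 (undifferentiated OS25), 0.24 (differentiated OS25) and 0.20 (Eed-/-). The cluster to Lnp ratio was then -0.26 (undifferentiated OS25), -0.42 (differentiated OS25), -0.25 (wild-type), -0.51 (Ring1B-/-), -0.08 (Ring1BGWT), -0.88 (A2) and -0.89 (P2). The side ratio was then -0.30 (undifferentiated OS25), -0.34 (differentiated OS25), -0.19 (wild-type) and -0.34 (Ring1B-/-). Enrichment with the cluster was then -0.67 (differentiated OS25), 0.29 (wild-type), -1.32 (A2) and -1.33 (P2). Prox partners called against 0 then numbered 2 (differentiated OS25, 15.9%), 2 (wild-type, 23.8%), 1 (Eed-/-, 9.52%), 1 (Ring1BGWT, 22.2%), 1 (Ring1BG53, 11.1%), 9 (A2, 51.1%) and 9 (P2, 43.2%). Prox minus Lnp with the cluster was then 0.33 (wild-type), 0.31 (Ring1B-/-) and 0.02 (Ring1BG53). The enrichment with Hoxd1 to Mtx2 was then 0.07 (wild-type), 0.10 (Ring1B-/-) and 0.18 (Ring1BG53). Prox minus the Evx2 side with the cluster was then -0.33 (Eed-/-), -0.59 (Ring1B-/-), 0.06 (A2) and -0.22 (P2). Without mHoxD_48, the change in the side ratio was -0.09 (differentiated OS25 against undifferentiated OS25) and -0.97 (Eed-/- against wild-type). The number of Prox partners called by frequency was then 1 (Eed-/- against wild-type, 12.7%). The change in the cluster to Lnp ratio was then -1.17 (Eed-/- against wild-type) and -0.06 (P2 against A2). Enrichment with the cluster was then -0.09 (undifferentiated OS25), -0.87 (Eed-/-), -0.04 (Ring1BGWT), -0.60 (A2) and -0.64 (P2). Prox minus Lnp with the cluster was then -0.16 (Ring1BGWT). Prox partners called against 0 then numbered 11 (A2, 62.5%) and 10 (P2, 68.2%). The cluster to Lnp ratio was then -0.10 (A2) and -0.16 (P2). With libraries scaled to summed pairs, the log2 change in frequency with the cluster was 0.13 (Eed-/- against wild-type). With only the groups compared in the fit, the change in the cluster to Lnp ratio was -0.94 (Eed-/- against wild-type). The number of Prox fragment pairs called was then 10 (Eed-/- against wild-type, 3.65%) and 7 (undifferentiated OS25 against wild-type, 2.21%). With values capped at the 99th percentile, the change in the cluster to Lnp ratio was -0.94 (Eed-/- against wild-type). Prox partners called against 0 then numbered 1 (Eed-/-, 28.6%) and 2 (Ring1B-/-, 38.1%). Prox minus Lnp with the cluster was then 0.00 (Ring1BG53). The change in the side ratio was then 0.00 (P2 against A2). Enrichment with the cluster was then -0.33 (P2). With bin pairs, the number of Prox fragment pairs called was 1 (Eed-/- against wild-type, 1.26%), 1 (Ring1B-/- against wild-type, 0.359%) and 1 (undifferentiated OS25 against wild-type, 0.18%). With the expected level from all pairs, the enrichment with the cluster was -0.39 (undifferentiated OS25), -0.67 (wild-type), -0.52 (Eed-/-), -0.54 (Ring1B-/-), -0.44 (Ring1BGWT), -0.97 (Ring1BG53), -0.36 (A2) and -0.43 (P2). Prox partners called against 0 then numbered 6 (undifferentiated OS25, 49.2%), 9 (differentiated OS25, 58.7%), 8 (wild-type, 65.1%), 5 (Eed-/-, 27%), 8 (Ring1B-/-, 52.4%), 8 (Ring1BGWT, 54%), 5 (Ring1BG53, 38.1%), 10 (A2, 59.1%) and 9 (P2, 64.8%). Prox minus Lnp with the cluster was then -0.04 (undifferentiated OS25) and -0.33 (Ring1BGWT).

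With each library left out in turn, the change in the cluster to Lnp ratio ran from -0.58 to 0.53 (differentiated OS25 against undifferentiated OS25), from -0.43 to 0.69 (undifferentiated OS25 against wild-type) and from -0.39 to 0.58 (P2 against A2). The change in the side ratio ran from -0.55 to 0.65 (differentiated OS25 against undifferentiated OS25), from -0.39 to 0.03 (Ring1B-/- against wild-type), from -0.58 to 0.62 (undifferentiated OS25 against wild-type) and from -0.33 to 0.29 (P2 against A2). The number of Prox partners called by enrichment ran from 0 to 1 (Eed-/- against wild-type, 0% to 9.52%). The log2 change in frequency with the cluster ran from -0.16 to 0.14 (Ring1B-/- against wild-type) and from -0.13 to 0.09 (P2 against A2). The enrichment with the cluster ran from -0.03 to 0.42 (undifferentiated OS25), from -0.82 to -0.74 (differentiated OS25), from -0.51 to -0.06 (Ring1B-/-) and from -0.40 to -0.18 (P2). The number of Prox partners called against 0 ran from 1 to 1 (undifferentiated OS25, 20.6% to 25.4%), from 1 to 2 (differentiated OS25, 22.2% to 28.6%), from 1 to 2 (wild-type, 30.2% to 33.3%), from 1 to 2 (Eed-/-, 6.35% to 9.52%), from 1 to 3 (Ring1B-/-, 31.7% to 34.9%), from 0 to 3 (Ring1BGWT, 23.8% to 25.4%), from 0 to 0 (A2, 0%) and from 5 to 9 (P2, 55.7% to 63.6%). The cluster to Lnp ratio ran from -0.15 to 0.97 (undifferentiated OS25), from -0.02 to 0.23 (Ring1B-/-), from -0.31 to 0.35 (A2) and from -0.37 to 0.60 (P2). The Hoxd1-Mtx2 to GCR ratio ran from -1.03 to 0.56 (undifferentiated OS25) and from -1.28 to 0.03 (differentiated OS25). The side ratio ran from -0.30 to 0.91 (undifferentiated OS25) and from -0.02 to 0.20 (Ring1B-/-). The enrichment with the 3′ Hoxd genes ran from -1.70 to 0.04 (Eed-/-). Prox minus Lnp with the cluster ran from -0.42 to 0.19 (Ring1B-/-), from -0.12 to 0.13 (Ring1BGWT), from -0.77 to -0.57 (A2) and from -0.96 to -0.54 (P2). The number of Prox fragment pairs called ran from 0 to 4 (P2 against A2, 0% to 0.208%). Prox minus the Evx2 side with the cluster ran from -0.93 to -0.66 (A2).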
